A study of Mus musculus with 4 samples.

Results

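RNA of cultured mouse prostate fibroblasts labelled BuOE was compared with RNA of the same kind of culture labelled PBS (phosphate-buffered saline), neither from an irradiated group. The members are all genes with a mean level of 1 CPM or more (the count relative to the library's total) in the 4 libraries of the series, and 14365 of 56748 genes met that rule. The cells came from prostates of male C57BL/6 mice of 8 to 10 weeks (spelled CB57BL/6 in the genotype field), which were digested with collagenase and grown in medium with serum before RNA was isolated. The other pair of libraries, PBS and radiation and BuOE and radiation, came from mice whose pelvis received 37.5 Gy, split over 5 days into doses of 7.5 Gy. That pair shares no library with the unirradiated one, so its own BuOE to PBS ratio is given beside many values. The dose and timing of BuOE, and whether mice or cultures received it, are not given in the sources used here. Each group is 1 library, so nothing here has a replicate or a p-value, and a ratio compares 2 libraries rather than 2 treatments.

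The letters BuOE also occur in the chemical name of the manganese porphyrin that the series title concerns, a compound that converts superoxide catalytically. Prostate fibroblasts secrete and cross-link the collagen and glycoprotein matrix, become contractile myofibroblasts under transforming growth factor beta (TGF-beta), and release cytokines. Cells set free from a whole prostate by collagenase can also include epithelium, vessel cells, glia and fat cells. Redox-active metal compounds are studied for their effect on the transcription factors NRF2, NF-kB and HIF, which control antioxidant, inflammatory and hypoxia genes.

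The deposited counts came to 29.7 M in the PBS library and 28.9 M in the BuOE library, and to 35.9 M and 25.0 M in the irradiated PBS and BuOE libraries. Levels are CPM after TMM scaling, a correction for unequal library composition. Differences are log2 ratios of BuOE over PBS with a prior count of 2 added, followed by a 95% interval that reflects counting error alone. Fibroblast markers were present in all 4 libraries: all 21 fibroblast markers passed the level rule, and they summed to 14091 CPM in the PBS library and 12703 CPM in the BuOE library. Keratins were present too, with Krt8 of simple epithelia at 934 and 1050.3 CPM. None of the 11 lymphocyte markers reached the level rule, and these markers summed to 6.03 and 2.01 CPM.

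In the BuOE library 1253 of 14365 genes (8.72%) were at least 2-fold higher than in the PBS library and 607 (4.23%) were lower by 2-fold or more, which is 12.9% in either direction. In the irradiated pair 3.81% of genes were higher and 5.92% lower by 2-fold, 9.74% in either direction, and 43.8% were above 0. At least 4-fold apart without radiation were 400 higher and 56 lower genes, and at least 16-fold apart 109 and 9. The ratios of 73.4% of genes lay within 1.5-fold, the median over all genes was -0.01 and 48.8% were above 0. Low levels held most of the higher genes. Between 1 and 3 CPM 21.0% of genes were 2-fold higher and 6.62% lower, between 30 and 100 CPM 3.36% and 3.06%, and at 300 CPM or more 2.44% and 3.01%. With a minimum of 10 CPM the counts were 433 higher and 339 lower genes of 9870. The interval lay wholly beyond 2-fold for 806 of the higher and 372 of the lower genes.

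In many of these genes it was the PBS library that stood apart. It was the lowest of the 4 libraries in 1102 of the 1253 higher genes (87.9%), and the BuOE library was the highest in 791 of them (63.1%). For the 607 lower genes, the PBS library was the highest of 4 in 514 (84.7%) and the BuOE library the lowest in 272 (44.8%). The genes were chosen by their levels in these libraries, so such ranks follow in part from the choice and are a description.

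**Figure D1:**
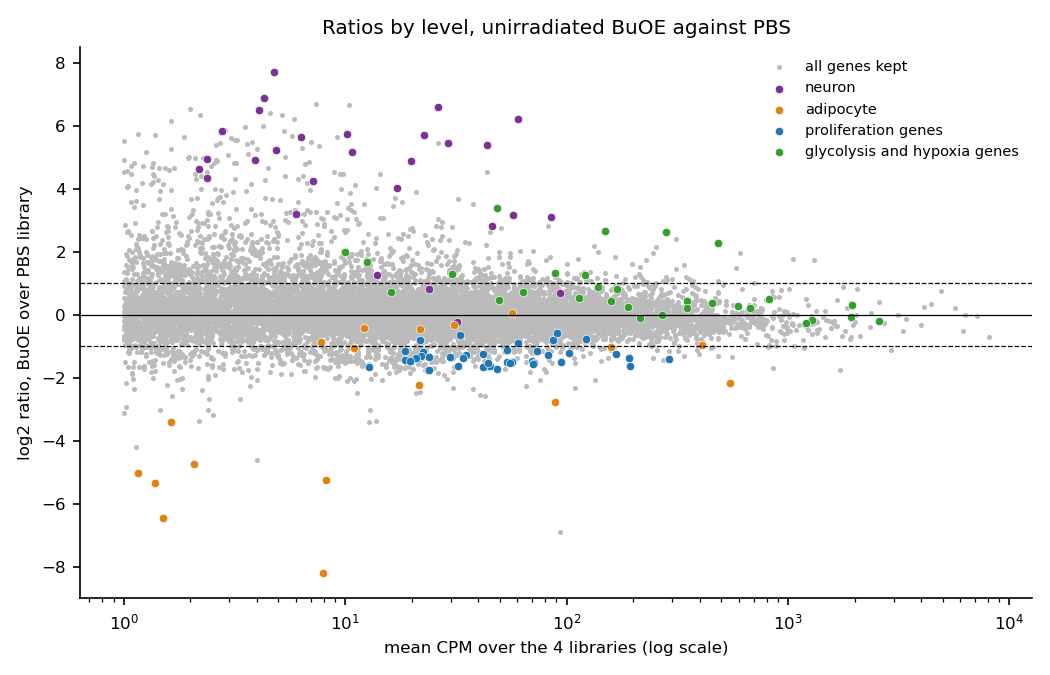
Log2 ratio of the BuOE over the PBS library (vertical axis) against the mean CPM over the 4 libraries (horizontal, log scale) for the 14365 genes, 1 point a gene, with dashed lines at 2-fold. Neuron markers (purple) reach the top, adipocyte markers (orange) the bottom, all 40 proliferation genes (blue) lie below 0, and the spread of the grey points narrows towards high levels.

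Genes of nerve cells had the highest ratios. Of 30 neuron markers 28 passed the level rule, 27 of these were above 0 and 25 at least 2-fold higher, where 8.72% of all genes were, with a median ratio of 4.93 against -0.01 over all genes. The markers summed to 237 CPM in PBS, 1508 in BuOE, 505 in irradiated PBS and 329 in irradiated BuOE cells. In bulk RNA, a difference in the number of cells of a type and a difference in RNA per cell cannot be told apart.

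Prph (ENSMUSG00000023484.15), which encodes the peripheral neuron filament peripherin, was at 0.783 CPM in the PBS, 81.7 in the BuOE, 20.6 in the irradiated PBS and 2.43 in the irradiated BuOE library, a log2 ratio of 6.59 (6.12 to 7.36). Vip, the gene of a vasodilator neuropeptide of pelvic nerves, was at 2.62, 199, 33.2 and 5.97 CPM in the same order (6.21, 5.92 to 6.59). Nos1, which encodes the neuronal nitric oxide synthase, was at 3.58, 150.3, 17.0 and 3.09 CPM (5.37, 5.11 to 5.69). For all 3 genes the BuOE library was the highest and the irradiated PBS library the next, and the other two libraries were low. Slc18a3, the vesicular acetylcholine transporter, had 2 counts in the PBS library and 476 in the BuOE library (0.0681 and 15.7 CPM, 6.87, 5.99 to 10.90).

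Syt1, a calcium sensor of synaptic vesicles, had no count in the PBS library and 13.8 CPM in the BuOE library, which is at least 135-fold higher when the PBS library is set at 3 counts. Th, the rate-limiting enzyme of noradrenaline synthesis, likewise had no count in the PBS library and was at 3.76 CPM in the BuOE library, at least 36.8-fold higher by the same floor. Transmitter genes of both kinds of autonomic neuron were thus among the higher ones, since Dbh, which makes noradrenaline, was at 0.204 and 13.4 CPM (5.64, 4.90 to 7.49). Setting Syt1 and Th at these bounds left the median of the marker list at 4.93. Not every marker followed: the neurofilament gene Nefm was at 46.6 and 39.6 CPM (-0.23) and the ubiquitin hydrolase gene Uchl1 at 90.5 and 144 (0.67).

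Of the 15 highest ratios among genes with a mean of 10 CPM or more, leaving out unnamed gene models, 14 belonged to neuron markers or other genes best known from nerve cells. They were, from the top, Slc7a14 (6.66), Prph, Vip, Rab3c (5.73), Syt4 (5.71), Vat1l (5.46), Stmn2 (5.45), Nos1, Syp (5.17), Sv2c (4.89), Disp2 (4.45), Avil (4.10), Kif5a (4.03) and Gap43 (4.02). Rab3c, Syt4, Syp and Sv2c encode proteins of synaptic or secretory vesicles, Kif5a an axonal transport motor, and Stmn2 and Gap43 proteins of the growing axon. The other was Tgm4, the prostate transglutaminase of the ejaculate, at 1.91, 45.7, 41.1 and 86.4 CPM (4.53, 4.20 to 4.99). Unlike those 14 genes, Tgm4 was higher in the irradiated BuOE than in the irradiated PBS library (1.07, 0.97 to 1.17).

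Across the 109 genes at least 16-fold higher, of which 20 were listed neuron markers, the median level was 0.170 CPM in the PBS, 8.61 in the BuOE, 2.72 in the irradiated PBS and 0.617 in the irradiated BuOE library. In the irradiated pair 91 of the 109 were at least 2-fold lower with BuOE and 6 at least 2-fold higher, where 5.92% and 3.81% of all genes were. The neuron markers had a median of -2.06 there, with 21 of 28 at least 2-fold lower. Above 0 there were 2 of the 28, Npy at 57.8 and 141 CPM (1.29, 1.21 to 1.37) and Nefm (0.63). Npy was also higher in the unirradiated pair, at 14.8 and 126 CPM (3.09). Most nerve genes thus had opposite directions in the pairs, and that difference was not tested.

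Glial genes went with the nerve genes in the unirradiated pair. All 18 markers of Schwann cells and glia passed the level rule, 16 were above 0 and 11 at least 2-fold higher, beside 8.72% of all genes. The median was 2.13, or 1.00 with 6 at least 2-fold higher at a minimum of 10 CPM, and their sum was 666 CPM in the PBS and 991 in the BuOE library. Sox10, the transcription factor of the glial lineage, was at 6.51, 50.6, 25.9 and 26.4 CPM (2.95, 2.74 to 3.18), so that both irradiated libraries lay between the other two. The neurotrophin receptor gene Ngfr, listed for both Schwann cells and basal epithelium, was at 25.2 and 179 CPM (2.83, 2.72 to 2.94). Lower in the BuOE library were Ncam1, a neural adhesion molecule (-0.52), and Egr2 (-1.01), a myelin regulator that is also an immediate early gene.

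**Figure D2:**
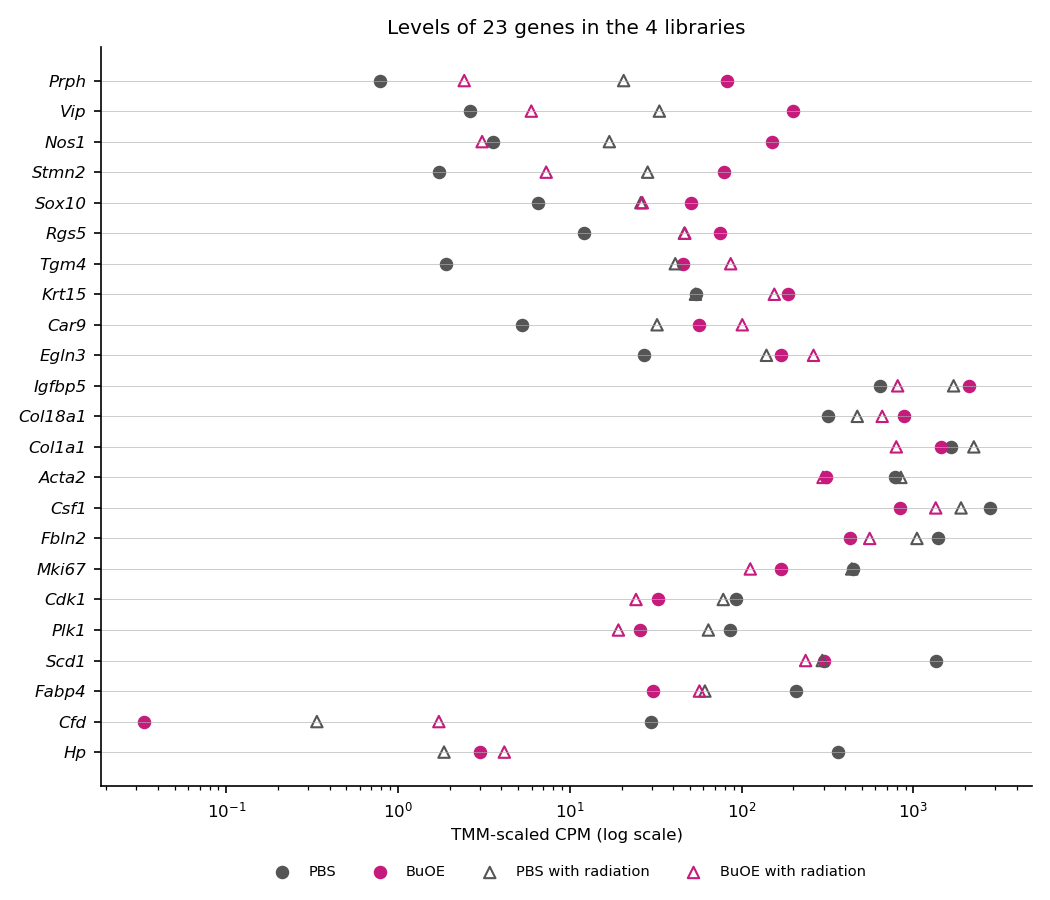
TMM-scaled CPM (horizontal, log scale) of 23 genes in the 4 libraries, filled circles for the unirradiated and open triangles for the irradiated libraries, grey for PBS and magenta for BuOE. Prph, Vip, Nos1 and Stmn2 are highest in the unirradiated BuOE library, and Hp, Scd1 and Fabp4 are highest in the unirradiated PBS library.

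Genes of fat cells were the counterpart on the lower side. Of 21 adipocyte markers 19 passed the level rule, 18 were below 0 and 12 at least 2-fold lower, where 4.23% of all genes were (median -2.16). With a minimum of 10 CPM the median was -0.95, with 5 at least 2-fold lower. The markers' sum was 2944 CPM in the PBS, 1041 in the BuOE, 1118 in the irradiated PBS and 949 in the irradiated BuOE library. Thus PBS was the high one of the 4 libraries, as it was for 16 of the 19 markers. Among the 9 genes at least 16-fold lower, 6 were adipocyte markers.

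Scd1, the desaturase that makes oleate, was at 1349.9, 302, 295 and 236 CPM (-2.16, -2.19 to -2.13). Fabp4, a fatty acid carrier of adipocytes, was at 208, 30.6, 61.1 and 56.8 CPM (-2.76, -2.86 to -2.66). Both were high in the PBS library only. Cfd, the complement factor adipsin, had 867 counts in the PBS library and 1 in the BuOE library (29.5 and 0.0330 CPM, interval -15.11 to -7.32), and Adipoq, the hormone adiponectin, had 5.76 CPM in the PBS library and no count in the BuOE library, at least 58.2-fold lower. Lep, the gene of leptin and below the level rule, had no count in the BuOE library either. Pparg, the master regulator of fat cell differentiation, differed less, at 11.2 and 8.38 CPM (-0.41), as did Cebpa (-0.33). In the irradiated pair the markers had a median of 0.62 with 12 of 19 above 0, 5 at least 2-fold higher and none 2-fold lower.

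Hp (ENSMUSG00000031722.11), which encodes the haemoglobin-binding protein haptoglobin, had the lowest ratio among genes of 10 CPM or more. It stood at 365 CPM in the PBS library, and at 3.00, 1.85 and 4.16 CPM in the BuOE, irradiated PBS and irradiated BuOE libraries (-6.89, -7.24 to -6.63). The level of the PBS library is thus the exception among the 4. Haptoglobin is made by liver and by fat, and the adipocyte markers were also highest in the PBS library, with the sums given above. Their part in the value of Hp was not tested. Haemoglobin was high in the same library: Hbb-bs was at 49.5, 8.81, 3.71 and 21.8 CPM (-2.48, -2.69 to -2.30), with reads that near-identical globin genes can share, so its value is uncertain. All 3 erythroid markers that passed the level rule, of 8, were 2-fold lower in the BuOE library, where 4.23% of all genes were. The 3 are near-identical or related globin genes. The 7 markers found in the table summed to 66.9, 12.2, 5.14 and 29.1 CPM in the 4 libraries. Ighm, an immunoglobulin heavy chain gene, was at 30.3 and 3.63 CPM (-3.04, -3.36 to -2.78).

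The remaining genes among the 15 lowest were of mixed kinds. Tnfsf15, a cytokine of the tumour necrosis factor family, was at 28.5 and 2.70 CPM (-3.36, -3.74 to -3.07), and it was also lower in the irradiated pair (-1.86, -2.16 to -1.60). Ptx3, a soluble pattern recognition protein, was at 73.3 and 12.2 CPM (-2.58, -2.75 to -2.42), and Serpinb2, a serine protease inhibitor, at 72.1 and 12.3 (-2.54, -2.71 to -2.39). Dlk1, a Notch-related inhibitor of fat cell differentiation, was lower too (-2.50, -2.82 to -2.23), as were the matrix gene Efemp1 (-2.37), the steroid dehydrogenase gene Akr1c18 (-2.27), the protocadherin gene Pcdh19 (-2.32), Asb5 (-2.34) and the lipid droplet gene Plin4 (-2.24). The proliferin genes Prl2c3 (-3.40) and Prl2c2 (-2.46) are near-identical copies, so their separate values are uncertain.

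Skeletal muscle markers were mostly lower, and all but 1 of those measured had a mean under 10 CPM. Of 19 such markers 10 passed the level rule. Below 0 were 8 of the 10, and 5 were at least 2-fold lower, beside 4.23% of all genes (median -0.91). Des, the only one with a mean above 10 CPM, was instead higher (1.16) and the muscle actin gene Acta1 slightly so (0.15). The 19 summed to 70.0 CPM in the PBS and 99.7 in the BuOE library, mostly from Des. In the irradiated pair 7 of the 10 were below 0 (median -1.05), with 5 at least 2-fold lower, where 5.92% of all genes were. Myod1, the factor that commits cells to muscle, was at 4.19, 0.396, 5.22 and 0.329 CPM (-3.20, -4.40 to -2.55). Its partner Myog was at 1.16 and 3.37 CPM in the PBS libraries and at 0 counts in both BuOE libraries, at least 11.7-fold lower in the unirradiated pair. Of the 7 measured mesothelial markers 2 were 2-fold lower, Lrrn4 (-3.36) and Wt1 (-1.01).

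Epithelial genes were mostly above 0 in the BuOE library. All 14 basal epithelial markers were above 0, 5 of them at least 2-fold (median 0.89), and 16 of 17 luminal markers, with 5 at least 2-fold higher (median 0.41). Of all genes 48.8% were above 0 and 8.72% at least 2-fold higher. The basal markers summed to 2883 CPM in the PBS and 5048 CPM in the BuOE library, and the luminal ones to 4207 and 5089 CPM. The basal keratin Krt15 was at 54.6, 187, 53.9 and 155 CPM (1.77, 1.69 to 1.86), high in both BuOE libraries. Krt5, the keratin that defines basal cells, was at 262 and 388 CPM (0.57, 0.53 to 0.61). The luminal keratin Krt8 was near 0 on the ratio scale (0.17) and Krt19 below it (-0.20).

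Secreted proteins of the prostate and seminal vesicle were higher in 15 of 17 measured genes (median 1.73). At least 2-fold higher were 13, where 8.72% of all genes were. Svs4 and Svs5, seminal vesicle proteins, were at 77.1 and 257 CPM (1.73, 1.67 to 1.80) and at 70.9 and 274 CPM (1.95, 1.88 to 2.02). Pbsn, the androgen-dependent probasin, was at 2.69, 7.26, 9.46 and 50.7 CPM (1.41, 1.05 to 1.82), and its irradiated ratio had the same direction (2.41, 2.25 to 2.60). Sbp, spermine-binding protein, was instead lower (757 and 428 CPM, -0.82, -0.85 to -0.79). In the irradiated pair Sbp was lower by far more (439 and 12.8 CPM, -5.10, -5.27 to -4.94). Cornification genes of injured epithelium were above 0 in 8 of 9 measured members, led by Sprr1a at 36.2, 190.4, 111 and 907 CPM (2.39, 2.30 to 2.49). Urothelial markers had a median of 0.23, with 1 of 10 at least 2-fold higher, near the 8.72% of all genes.

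Markers of vessel cells were mostly above 0 too. Endothelial markers were above 0 in 17 of 19 and at least 2-fold higher in 7, where 8.72% of all genes were (median 0.90), and summed to 772 CPM in the PBS library and to 1131, 1426 and 1242 CPM in the BuOE, irradiated PBS and irradiated BuOE libraries, so that the PBS library was the low one. Vwf, von Willebrand factor, was at 25.7 and 73.3 CPM (1.51, 1.39 to 1.63), while Lyve1 of lymphatic vessels was 2-fold lower (-1.44). Pericyte and smooth muscle markers were 2-fold higher in 7 of 13 (median 1.16, or 0.89 with a minimum of 10 CPM), and 4 were below 0, with Actg2 2-fold lower (-1.48) and the pericyte genes Cspg4 (-0.20) and Pdgfrb (-0.22) slightly so. Among the higher ones was Rgs5, a pericyte regulator of G protein signals, at 12.1 and 74.9 CPM (2.62, 2.47 to 2.80). Macrophage markers were above 0 in 14 of 16 and at least 2-fold higher in 4, which were Fcer1g (1.05) and the complement genes C1qa (1.25), C1qb (1.19) and C1qc (1.39). The general leukocyte gene Ptprc was near 0 (0.13).

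**Figure D3:**
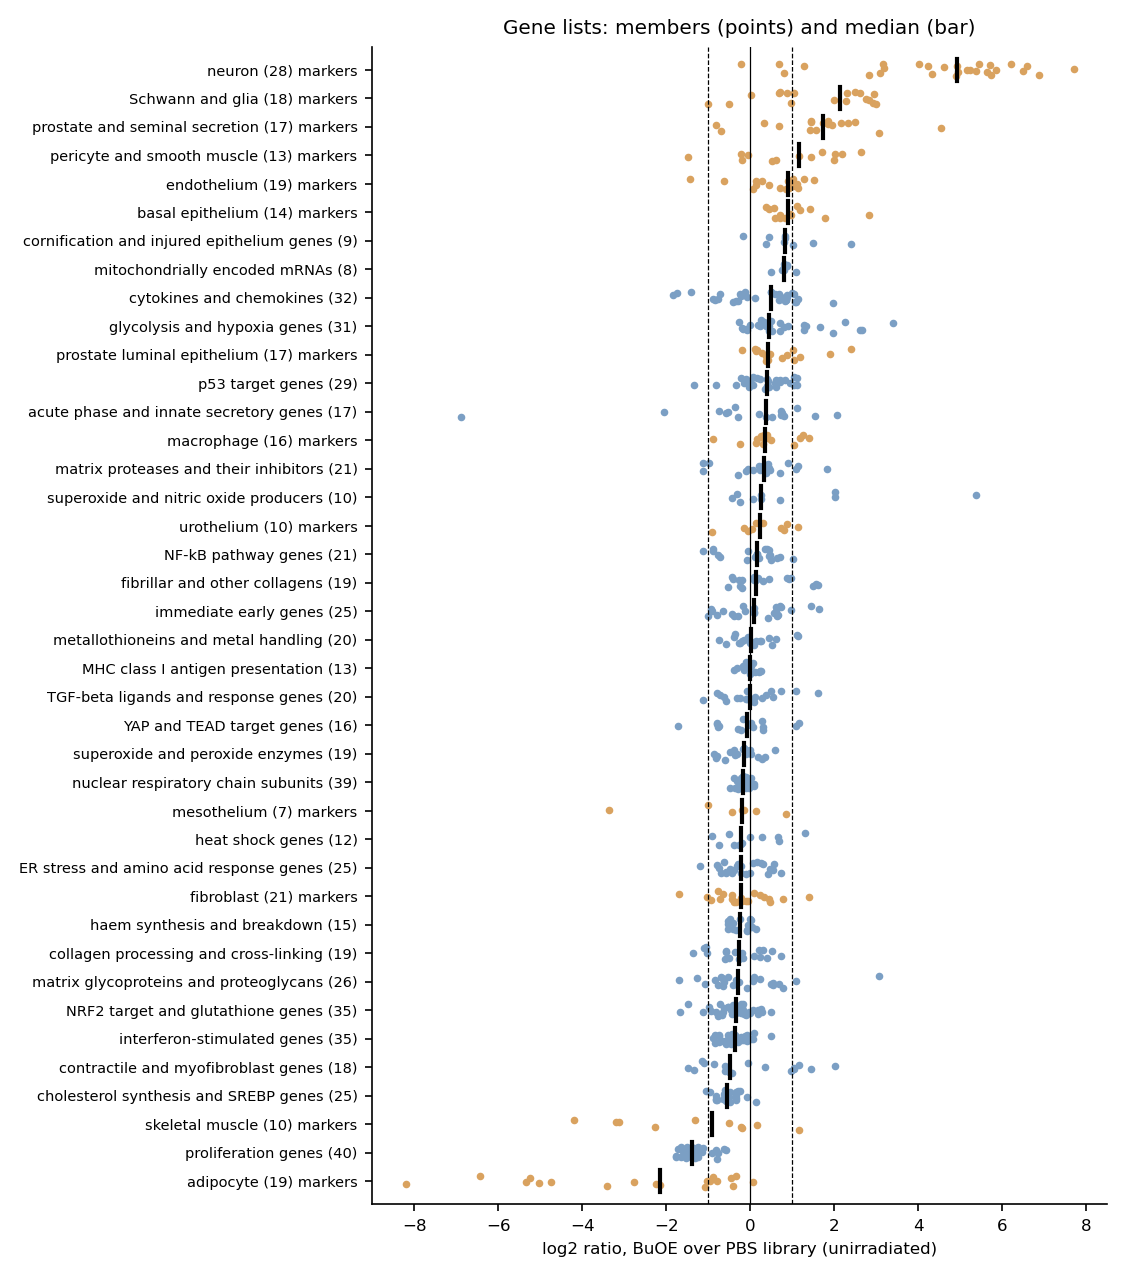
Log2 ratio of the BuOE over the PBS library (horizontal) for each measured member (points) of the 40 lists with more than 3 of them, with the number of members in brackets, the list median as a bar and dashed lines at 2-fold, where cell type markers are tan and other lists blue. Neuron, glial and secretory genes lie highest and proliferation and adipocyte genes lowest, and points of genes with 0 counts in a library depend on the prior count.

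Fibroblast markers themselves differed less. Of 21, 7 were above 0, 1 at least 2-fold higher and 2 lower by as much (median -0.22), beside 8.72% and 4.23% of all genes. Thy1, a surface protein of fibroblasts and neurons, was the higher one, at 16.9, 44.8, 40.5 and 20.0 CPM (1.41, 1.26 to 1.56). Fbln2, a fibulin of the elastic fibre, and Twist1, a mesenchymal transcription factor, were the lower ones (-1.70 and -1.02). The receptor gene Pdgfra was at 766 and 709 CPM (-0.11) and Vim, which encodes vimentin, at 2551 and 1545 CPM (-0.72, -0.74 to -0.71).

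The collagens differed among themselves. Of 19, 12 were above 0 and 7 below, 3 were at least 2-fold higher, where 8.72% of all genes were, and none lower (median 0.12). With library size alone 5 were at least 2-fold higher and the median was 0.21. The fibrillar genes Col1a1 and Col1a2 were slightly lower in the BuOE library, at 1652 and 1443 CPM (-0.20, -0.21 to -0.18) and at 1593 and 1173 CPM (-0.44, -0.46 to -0.42), while Col3a1 was higher, at 1264 and 1725 CPM (0.45, 0.43 to 0.47). The genes past 2-fold were Col15a1 (1.60, 1.54 to 1.67) and Col18a1 (1.48, 1.45 to 1.52), collagens of the basement membrane zone, and Col14a1 (1.56), which coats fibrils. In the irradiated pair 18 of the 19 collagens were below 0, with a median of -0.78 and Col1a1 at -1.50 (-1.52 to -1.48). The median of that pair over all genes was -0.07.

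Enzymes that process and cross-link collagen were mostly lower, with 12 of 19 below 0 (median -0.28). At least 2-fold lower were 4, where 4.23% of all genes were, or 2 with scaling by library size alone. Those 4 were 3 lysyl oxidases, the copper enzymes that start the cross-links, and Pcolce, a helper of collagen cleavage. Lox was at 1717, 823, 1336 and 866 CPM (-1.06, -1.08 to -1.04), Loxl1 had a ratio of -1.04, Loxl3 of -1.37 and Pcolce of -1.10. Loxl2 differed little (0.22), and the transglutaminase gene Tgm2 was higher (0.72, 0.67 to 0.78). Lox was lower with BuOE in the irradiated pair too (-0.62, -0.65 to -0.60).

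Matrix glycoproteins and proteoglycans had 11 of 26 members above 0, 2 at least 2-fold higher and 3 lower by as much, where 8.72% and 4.23% of all genes were (median -0.31). Fbln2 was at 1394, 429.8, 1049 and 557 CPM (-1.70, -1.73 to -1.67), and lower with BuOE in both pairs. Its relative Fbln5 (-1.28) and the proteoglycan gene Vcan (-1.07) were the other lower members. Eln, which encodes elastin, was at 1.87, 16.2, 27.9 and 11.2 CPM (3.07, 2.71 to 3.54). The PBS library was the low one there, and the irradiated pair had the opposite direction (-1.31, -1.51 to -1.12). Postn, a matricellular protein of remodelling tissue, was at 179 and 382 CPM (1.09, 1.05 to 1.14). Fn1 (fibronectin) was at 3182 and 3747 CPM (0.24, 0.22 to 0.25) and Thbs1, which activates latent TGF-beta, at 6852 and 4746 CPM (-0.53, -0.54 to -0.52).

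Proteases and inhibitors of the matrix had 15 of 21 members above 0 (median 0.33). At least 2-fold higher were 3 and lower by as much 2, beside 8.72% and 4.23% of all genes. Proteases made up the higher members: Adamts4, which cuts aggrecan and versican, was at 58.0 and 204 CPM (1.82, 1.74 to 1.90), and the gelatinase gene Mmp9 at 194 and 426 CPM (1.14, 1.09 to 1.18). Timp1, an inhibitor of these proteases, was at 1533, 771, 1229 and 718 CPM (-0.99, -1.01 to -0.97), low in both BuOE libraries. The protease gene Mmp23 was among the lower members past 2-fold (-1.12), and Mmp3 (0.30) and Mmp13 (0.44) were slightly higher.

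Contractile genes divided into opposite groups, with 7 of 18 above 0 (median -0.47). At least 2-fold higher were 5 and lower by as much 4, where 8.72% and 4.23% of all genes were. Acta2, the smooth muscle actin by which myofibroblasts are recognised, was at 782, 308, 845 and 298 CPM (-1.34, -1.38 to -1.31), low in both BuOE libraries. Actg2 (-1.48), Tagln (-1.15) and Myl9 (-1.11) were lower with it. Myh11, the myosin heavy chain of differentiated smooth muscle, was at 24.4, 99.4, 43.4 and 116 CPM (2.02, 1.91 to 2.14), high in both BuOE libraries, and Cnn1 (1.45), Des (1.16), Mylk (1.05) and Itga11 (1.04) went the same way. Myh11, Cnn1, Des and Actg2 are also in the list of pericyte and smooth muscle markers, which summed to 1041 CPM in the PBS and 1408 CPM in the BuOE library, and their part in these values was not tested.

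TGF-beta ligands and response genes were balanced, with 10 of 20 above 0 and a median of -0.02 that changed sign with scaling by library size alone and with a minimum of 10 CPM. Tgfb1 was at 287 and 271 CPM (-0.08, -0.13 to -0.04), a ratio above 0 with library size alone. The targets split: Ccn2, connective tissue growth factor, was at 863 and 494 CPM (-0.80, -0.83 to -0.78), whereas Tgfbi, a matrix protein named for its induction by TGF-beta, was at 27.0 and 82.9 CPM (1.61, 1.50 to 1.73) and the cytokine gene Il11 at 144 and 304 CPM (1.08, 1.02 to 1.13). YAP and TEAD targets, which respond to tension, had 7 of 16 above 0 and a median of -0.09 that also changed sign with library size alone. At least 2-fold higher were Nt5e (1.17) and Igfbp3 (1.08). Ankrd1 was lower by as much (69.7 and 21.0 CPM, -1.73, -1.86 to -1.60). Over all genes 8.72% were higher and 4.23% lower.

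Proliferation genes were lower throughout. All 40 listed genes were measured and all 40 were below 0, 34 of them at least 2-fold, where 4.23% of all genes were, with a median of -1.38 and ratios from -1.77 to -0.59. For 39 of them PBS was the highest of the 4 libraries. In the irradiated pair all 40 were below 0 again and 33 at least 2-fold (median -1.57), in separate libraries.

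Mki67, the antigen that marks cycling cells, was at 446 CPM in the PBS, 169 in the BuOE, 438 in the irradiated PBS and 112 in the irradiated BuOE library (-1.40, -1.44 to -1.35). Both PBS libraries were high and both BuOE libraries low. The mitotic genes followed: Cdk1, the kinase that drives entry into mitosis, was at 92.7, 32.8, 78.2 and 24.3 CPM (-1.50, -1.61 to -1.40), and Plk1 at 85.8, 25.8, 64.1 and 19.2 CPM (-1.73, -1.85 to -1.62). Of the S phase genes, the thymidine kinase Tk1 was lowest among the 40 (-1.77, -1.95 to -1.60), Rrm2, a subunit of ribonucleotide reductase, had -1.63 (-1.69 to -1.57), and Pcna, the replication clamp, the one nearest 0 (-0.59, -0.67 to -0.51).

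Late cell cycle promoters often carry the CHR element, bound by the DREAM and MuvB complexes, together with CCAAT boxes. The promoters of Cdk1, Cdc20 and Top2a are shown because the element lies close to the start in each. These are the 120 bases before the transcription start (RefSeq, GRCm38.p6), for genes on the minus strand, with matches to the CHR letters TTTGAA on either strand in capitals.
Cdk1, chr10:69352913-69353032: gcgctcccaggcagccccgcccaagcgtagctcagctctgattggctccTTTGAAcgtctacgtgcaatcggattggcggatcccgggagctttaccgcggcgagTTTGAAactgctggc
Cdc20, chr4:118437344-118437463: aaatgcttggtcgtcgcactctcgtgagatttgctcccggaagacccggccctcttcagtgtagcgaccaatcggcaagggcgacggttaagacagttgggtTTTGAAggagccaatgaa
Top2a, chr11:99024190-99024309: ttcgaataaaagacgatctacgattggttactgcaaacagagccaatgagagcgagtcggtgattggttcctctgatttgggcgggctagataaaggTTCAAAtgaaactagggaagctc
The match in Top2a is on the opposite strand. Over windows from 250 bases before to 50 after the start, TTTGAA occurred on either strand in 15 of 34 windows of the 33 proliferation genes found in the RefSeq table (44.1%), against 12.0% of the windows of all measured genes and 17.9% of all 32851 windows in the table. The letters CCAAT occurred in 76.5% of the proliferation windows, against 37.2% and 37.4%. A match describes the letters and is no measurement of binding, and these shares follow in part from a list made of cell cycle genes. Cdc20, the activator of the anaphase ligase, was at 72.9 and 23.1 CPM (-1.66, -1.78 to -1.54), and the topoisomerase gene Top2a at 299 and 114 CPM (-1.39, -1.44 to -1.33).

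p53 target genes were mostly higher, with 22 of 29 above 0, 4 at least 2-fold higher and 1 lower by as much (median 0.40). Cdkn1a, the p21 inhibitor of cyclin-dependent kinases, was at 201, 354, 244 and 591 CPM (0.82, 0.77 to 0.86), higher with BuOE in both pairs. Mdm2, the ligase that degrades p53, was at 152 and 140.2 CPM (-0.11, -0.17 to -0.05). The members past 2-fold were Perp (1.11), which is also a desmosome protein of epithelium, Trp53inp1 (1.10), Ddit4 (1.05), which also responds to hypoxia, and Gadd45a (1.04). The lower one, Ckap2 (-1.35), is a mitotic spindle protein. The share of 4 in 29 stood beside 8.72% of all genes.

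NRF2 targets, the antioxidant and glutathione genes, were lower in 29 of 35 cases (median -0.35). Only 3 were at least 2-fold lower, beside 4.23% of all genes. Nqo1, a quinone reductase used as the standard NRF2 readout, was at 391, 178, 223 and 229 CPM (-1.13, -1.18 to -1.09). Txnrd1, thioredoxin reductase, was at 1225, 619, 868 and 838 CPM (-0.99, -1.01 to -0.96), and Hmox1, which breaks down haem, at 1686, 1261, 1326 and 2005 CPM (-0.42, -0.44 to -0.40). For 22 of the 35 genes PBS was the highest library. The irradiated pair did not share the direction, with a median of 0.20 and Nqo1 at 0.04 (-0.01 to 0.09). The other members past 2-fold, Gsta1 and Gsta2, are near-identical glutathione transferases of under 4 CPM, so their values are uncertain.

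Enzymes that remove superoxide and peroxide had no member past 2-fold among 19 (median -0.15). Sod1, the cytosolic superoxide dismutase, was at 159 and 149 CPM (-0.10, -0.16 to -0.04), the mitochondrial Sod2 at 85.9 and 105 (0.29, 0.21 to 0.36), the extracellular Sod3 at 84.3 and 127 (0.59, 0.52 to 0.66) and catalase (Cat) at 152 and 121 (-0.32, -0.39 to -0.26). The largest differences were those of the peroxiredoxin gene Prdx1 (-0.82, -0.84 to -0.80) and the glutathione peroxidase gene Gpx7 (-0.87).

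Of the 10 measured producers of superoxide and nitric oxide, 3 were at least 2-fold higher, all nitric oxide synthases. The share over all genes was 8.72%. Beside Nos1, which lies in the neuron list, Nos3, the endothelial form, was at 5.28 and 21.5 CPM (2.01, 1.77 to 2.29), and Nos2, the inducible form, at 2.35 and 9.73 CPM (2.02, 1.67 to 2.45). The NADPH oxidase genes Nox4 (-0.32) and Cybb (0.07) differed less. Neuron and endothelial marker sums moved with Nos1 and Nos3, and their part in these values was not tested.

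Metal handling genes were balanced, with 10 of 20 above 0 (median 0.01, negative with a minimum of 10 CPM). The metallothioneins, which bind zinc and copper, differed little: Mt1 was at 107 and 113 CPM (0.09, 0.02 to 0.16) and Mt2 at 146 and 199 CPM (0.45, 0.39 to 0.51). The iron carriers Trf (1.13) and Lcn2 (1.11) were the members past 2-fold, a share of 10.0% near the 8.72% of all genes. The iron uptake receptor gene Tfrc was the lowest (-0.74, -0.81 to -0.67). Haem synthesis and breakdown genes had a median of -0.26 and none past 2-fold among 15.

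Glycolysis and hypoxia genes were above 0 in 25 of 31 and at least 2-fold higher in 9, where 8.72% of all genes were (median 0.45). For 25 of the 31 genes PBS was the lowest library. Car9 (ENSMUSG00000028463.15), a carbonic anhydrase that HIF induces in low oxygen, was at 5.28, 56.3, 32.2 and 101 CPM (3.40, 3.18 to 3.66), and higher with BuOE in the irradiated pair too (1.65, 1.55 to 1.75). Egln3, a prolyl hydroxylase that HIF induces in feedback, was at 26.9, 170.2, 139.5 and 262 CPM (2.66, 2.55 to 2.77).

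The other members past 2-fold were Ndrg1 (2.61), Ero1l (2.26), Ankrd37 (1.97), Aldoc (1.67), Adm (1.33), Eno2 (1.28), which is also a neuronal isoform, and Bnip3 (1.27). Vegfa, the endothelial growth factor, was at 539 and 757 CPM (0.49, 0.46 to 0.52). Of the glycolytic enzymes, lactate dehydrogenase (Ldha, -0.28) and pyruvate kinase (Pkm, -0.19) had the 2 lowest ratios of the list. Below 0 were 6 of the 31 measured genes. Aldolase (Aldoa) was higher, at 1380 and 1715 CPM (0.31, 0.30 to 0.33).

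HIF binds the hypoxia response element, whose core is ACGTG. The promoters of Car9, Bnip3 and Ankrd37 are shown because each has the core within the 120 bases before its start (RefSeq, GRCm38.p6), Car9 on the plus strand and the others on the minus strand, with matches on either strand in capitals.
Car9, chr4:43506906-43507025: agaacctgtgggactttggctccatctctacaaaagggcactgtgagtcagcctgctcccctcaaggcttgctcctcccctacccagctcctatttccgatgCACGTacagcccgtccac
Bnip3, chr7:138909507-138909626: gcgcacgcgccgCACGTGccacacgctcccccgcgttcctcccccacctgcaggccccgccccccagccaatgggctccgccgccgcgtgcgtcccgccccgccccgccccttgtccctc
Ankrd37, chr8:45999851-45999970: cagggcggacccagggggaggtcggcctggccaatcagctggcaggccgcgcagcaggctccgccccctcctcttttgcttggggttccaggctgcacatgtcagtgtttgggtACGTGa
The match in Car9 is on the opposite strand, and the palindrome in Bnip3 holds overlapping matches on both. In windows from 250 bases before to 50 after the start, ACGTG occurred on either strand in 22 of 40 windows of the 29 hypoxia and glycolysis genes found (55.0%), against 24.6% of the windows of all measured genes, 19.6% of all windows and 8.70% of neuron marker windows. The list was made of hypoxia and glycolysis genes, so this share follows in part from the choice of the list. It is no measurement of binding or of BuOE. Bnip3, a mitophagy receptor, was at 43.5, 105, 120.4 and 215 CPM (1.17 to 1.36), and Ankrd37 at 2.35, 9.43, 8.59 and 19.6 CPM (1.62 to 2.41).

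Mitochondrially encoded mRNAs were higher in all 8 that passed the level rule, of 13 (median 0.81). mt-Co1, a subunit of cytochrome oxidase, was at 1940.2, 3255, 3855 and 10675 CPM (0.75, 0.73 to 0.76). The PBS library was the lowest of the 4 for all 8, and the irradiated pair had the same direction with a median of 1.66. Of the 13, 2 had no count in the PBS and 1 none in the BuOE library, and mt-Co2 was at only 1.36 and 2.54 CPM. How reads with several matches were counted is not given, so the mitochondrial values are uncertain. Nuclear genes of the respiratory chain were below 0 in 36 of 39, none by 2-fold (median -0.18). The measured mitochondrial genes and most nuclear genes of the chain thus had opposite directions.

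Cholesterol synthesis genes, controlled by SREBP, were below 0 in 24 of 25, by a median of -0.56. Only Idi1 passed 2-fold (-1.06, -1.33 to -0.81), where 4.23% of all genes were at least 2-fold lower. Hmgcs1, which makes the precursor of mevalonate, was at 165, 134, 119 and 85.2 CPM (-0.30, -0.36 to -0.24), and Sqle, which oxidises squalene, at 79.5, 63.1, 60.4 and 39.3 CPM (-0.33, -0.42 to -0.24). The PBS library was the highest of the 4 for 24 of the 25 genes, and the irradiated pair had a median of -0.49. Fat cell markers, which moved in the same direction, include lipid synthesis genes, and their part was not tested.

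Interferon-stimulated genes were below 0 in 31 of 35 without any past 2-fold (median -0.37), the lowest being the antiviral gene Oasl1 (34.8 and 18.7 CPM, -0.89, -1.05 to -0.75). The irradiated pair had a median of 0.27. Genes of MHC class I presentation lay near 0 (median -0.01 over 13, above 0 with library size alone), with B2m at 613 and 645 CPM (0.07, 0.04 to 0.10). NF-kB pathway genes had 14 of 21 above 0 (median 0.16), with 1 past 2-fold in each direction, Traf1 (1.02) and Tnfaip2 (-1.14). The shares over all genes were 8.72% higher and 4.23% lower.

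Cytokines and chemokines were 2-fold higher in 5 of 32 and 2-fold lower in 3, where 8.72% and 4.23% of all genes were, and their median of 0.50 became -0.08 with a minimum of 10 CPM. The lower ones were Cxcl9 (-1.83), Ccl11 (-1.40) and Csf1. Csf1, the macrophage growth factor, was at 2781 CPM in the PBS and 831 in the BuOE library (-1.74, -1.76 to -1.72), with 1894 and 1349 CPM in the irradiated pair. Ccl2, a monocyte attractant, was at 117 and 62.8 CPM (-0.90, -0.98 to -0.82), and the neutrophil attractants Cxcl1 (-0.72) and Cxcl5 (-0.83) were lower as well. Il6 was higher, at 24.8 and 54.5 CPM (1.13, 1.01 to 1.26), as was Lif, of the same cytokine family (109 and 217 CPM, 0.99, 0.93 to 1.05). The T cell attractant gene Ccl5 had the highest ratio (2.32 and 9.30 CPM, 1.98, 1.62 to 2.41), and it was higher in the irradiated pair too (1.94, 1.67 to 2.25).

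Of 17 measured acute phase and innate secretory genes, 3 were 2-fold higher and 2 lower, beside 8.72% and 4.23% of all genes. The lower ones were Hp and Lrg1 (29.5 and 7.03 CPM, -2.06, -2.29 to -1.85). Serpina3n, a serine protease inhibitor, was at 13.5, 57.2, 14.7 and 15.8 CPM (2.08, 1.92 to 2.24), high in the unirradiated BuOE library alone, and Ltf, lactoferrin, showed the same order (20.7, 60.0, 20.8 and 22.3 CPM, 1.53, 1.40 to 1.67). Lcn2, which binds bacterial siderophores, was the other, at 107 and 231 CPM (1.05 to 1.17).

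Immediate early genes, induced by growth factors and stress, had 15 of 25 above 0 (median 0.10), with Atf3 (24.4 and 75.2 CPM, 1.62, 1.50 to 1.75) and Nr4a3 (1.45) past 2-fold, Fos just short of it (0.97) and Egr1 near 0 (0.08). On the lower side were Egr2, just past 2-fold (-1.01), and Fosl1 (-0.93). Over all genes 8.72% were higher and 4.23% lower by 2-fold. Genes of ER stress and amino acid response had 16 of 25 below 0 (median -0.22). Psat1, of serine synthesis, was the only one past 2-fold (-1.21, -1.28 to -1.14), and the chaperone gene Hspa5 was at 1313 and 1129.7 CPM (-0.22, -0.24 to -0.20). Heat shock genes had a median of -0.22, with the inducible Hspa1a higher (8.48 and 20.8 CPM, 1.29, 1.08 to 1.51), although its near-identical copy Hspa1b makes that value uncertain.

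The irradiated pair gave another set of BuOE to PBS ratios for the same genes, from other libraries. Of the 607 genes at least 2-fold lower in the unirradiated pair, 316 (52.1%) were also 2-fold lower in the irradiated one, where 5.92% of all genes were, and these make 37.1% of the 851 genes lower there. Of the 1253 higher genes, 226 (18.0%) were also higher, where 3.81% of all genes were, which is 41.2% of the 548 genes higher there. A further 215 of the higher genes (17.2%) were 2-fold lower in the irradiated pair, against 16 genes (2.64%) in the reverse case. The median irradiated ratio was -1.04 for the lower and 0.11 for the higher genes. The difference between these shares was not tested.

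Across genes, which are not independent replicates, the ratios of the pairs had a Pearson correlation of 0.14 and a Spearman correlation of 0.41 over 14365 genes, and of 0.43 and 0.56 over the 9870 genes with a mean of 10 CPM or more. Both pairs had the same direction of the list median for proliferation, glycolysis and hypoxia, mitochondrial, cholesterol, cross-linking, contractile, p53, basal and luminal epithelial and secretory genes. They had opposite directions for neuron, glial, endothelial, adipocyte, erythroid, collagen, NRF2 and interferon genes. No alternative scaling or filter that was tried changed the sign of these medians in the unirradiated pair.

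**Figure D4:**
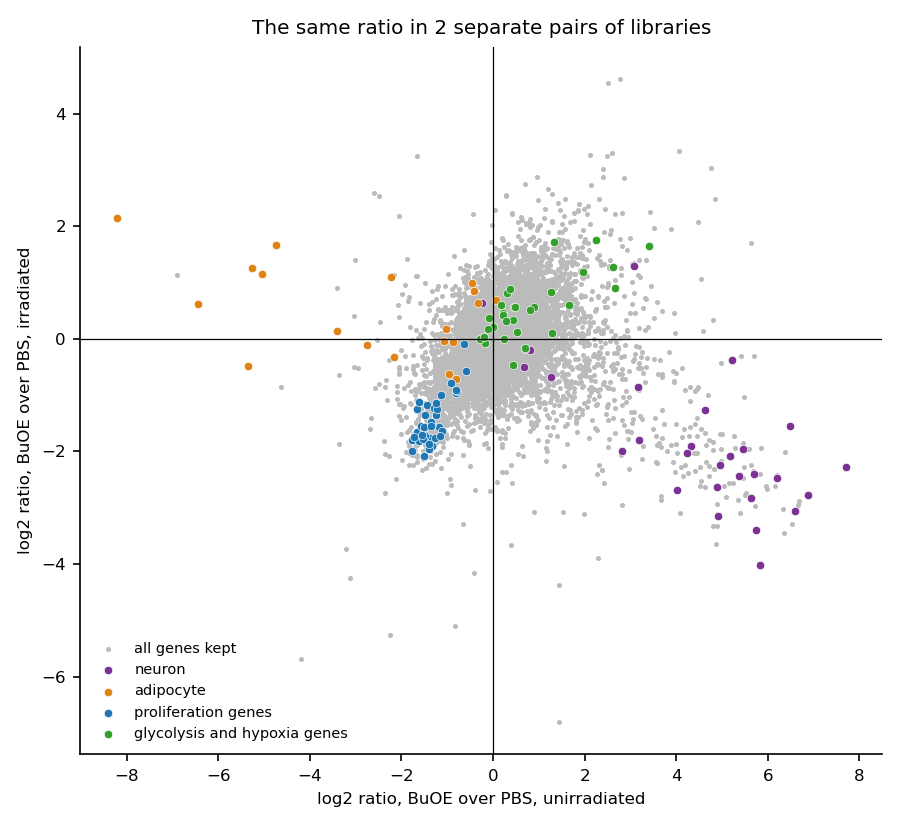
Log2 ratio of BuOE over PBS in the unirradiated pair (horizontal) against the same ratio in the irradiated pair (vertical), 1 point for each of the 14365 genes. Proliferation genes (blue) lie low in both and hypoxia and glycolysis genes (green) mostly high in both. Neuron markers (purple) lie mostly at the lower right and adipocyte markers (orange) at the left.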

How the data were processed

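RNA of 4 cultures, 1 for each group, was sequenced and deposited as 1 table of counts per gene. The authors made these counts with featureCounts. This comes from the submitters' processing notes, where Trim Galore 0.6.4, FastQC, Salmon 1.4.0, edgeR 4.2.2 and the build GRCm39 are named too. Strand setting, handling of reads with several matches and annotation release are not given in the sources used here. Gene symbols were matched by Ensembl identifier to GENCODE M21 (GRCm38), and 4675 of 56748 identifiers had none.

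From the deposited counts, library sizes were scaled by TMM (edgeR 4.0.16, R 4.3.3; factors 0.987, 1.05, 0.992 and 0.972 for PBS, BuOE, irradiated PBS and irradiated BuOE). The 14365 genes with a mean of 1 CPM or more held 99.8% of PBS and 99.7% of BuOE counts. The log2 ratio of BuOE over PBS had a prior count of 2, scaled in proportion to library size. Its 95% interval is the exact (Clopper-Pearson) binomial one on the counts of both libraries (SciPy 1.17.1). PCR reads without molecular identifiers are not independent molecules, so intervals and floors cover counting error only. The median half-width of the interval was 0.11 at 10 CPM or more. A count of 0 was set at 3 counts (0.102 CPM in the PBS and 0.0990 CPM in the BuOE library) for fold bounds. With 1 library per group no test across genes was made, and members were described by the size of the ratio. The procedure was tested on simulated data.

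The members and the 42 gene lists were chosen with earlier results of these data known, so list counts are descriptions. Named genes were the 15 highest and 15 lowest ratios at 10 CPM or more (no gene models, pseudogenes, ribosomal, small RNA or mitochondrial genes), for each list the 2 members with the highest mean CPM and the 2 highest and 2 lowest ratios, and a set of 35 genes. Some genes named by this rule are not reported here. Other genes named, and the groups in the closing section, were chosen after their values were seen. Promoter sequences are RefSeq's (GRCm38.p6), and motifs were searched on both strands. Alternatives tried were DESeq2 1.42.0 size factors, library size alone, upper-quartile factors, a prior count of 0.5, no filter, a minimum of 10 CPM, and the filter over the PBS and BuOE libraries only.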

Additional observations from a re-analysis of the deposited data

Results flagged for a closer look

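The ratio of BuOE over PBS was compared between the unirradiated and the irradiated pair for genes of the naming rule and for list medians. It had opposite directions, each past 2-fold, for 26 of these genes and for the medians of 2 marker lists. Genes chosen after their values were seen were not screened, and Igfbp5 among them also had opposite directions (1.72 and -1.08). Each pair is 1 library against 1, and the difference between the pairs was not tested. Nerve genes make up most of the 26. Unirradiated and irradiated log2 ratios were 7.70 and -2.28 for Syt1, 6.87 and -2.77 for Slc18a3, 6.66 and -2.94 for Slc7a14, 6.59 and -3.05 for Prph, and 6.21 and -2.46 for Vip. In the same order they were 5.73 and -3.40 for Rab3c, 5.71 and -2.40 for Syt4, 5.46 and -2.46 for Vat1l, 5.45 and -1.95 for Stmn2, 5.37 and -2.43 for Nos1, and 5.17 and -2.09 for Syp. They were 4.89 and -2.63 for Sv2c, 4.45 and -1.72 for Disp2, 4.10 and -2.27 for Avil, 4.03 and -2.02 for Kif5a, and 4.02 and -2.68 for Gap43. The median of the neuron markers was 4.93 and -2.06. Syt1 had no count in the PBS library, so its fitted ratio depends on the prior count.

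Among matrix and surface genes, elastin (Eln) had 3.07 and -1.31, and Thy1 1.41 and -1.01. The reverse order, lower without and higher with radiation, was seen in fat, blood and glutathione genes. Haptoglobin (Hp) had -6.89 and 1.14, Cfd -8.21 and 2.15, and Plin4 -2.24 and 1.10. The globin genes had -2.48 and 2.53 for Hbb-bs, -2.06 and 2.18 for Hba-a1 and -2.59 and 2.59 for Hba-a2, and the erythroid marker median, over 3 near-identical or related globin genes, had -2.48 and 2.53. Gsta1 had -1.67 and 1.12 and Gsta2 -1.49 and 1.00, at low counts. For Hp and Cfd the irradiated libraries were all under 5 CPM, so the unirradiated PBS library alone was high.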

How the results depend on the processing

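The counts of 1253 higher and 607 lower genes stayed within 1.5 times under the scaling alternatives, a prior count of 0.5 and a filter over the PBS and BuOE libraries only. With library size alone they were 1421 and 519, and with upper-quartile factors 1237 and 615. Without a filter on low values they were 2850 and 2373, and with a minimum of 10 CPM 433 and 339. Higher genes made 67.4% of those past 2-fold in the main setting, 54.6% without a filter and 56.1% with the minimum of 10 CPM. Of 253 named gene ratios none past 2-fold changed direction with another scaling or prior count, and no list median past 2-fold did under any alternative. With the minimum of 10 CPM the neuron markers had a median of 4.45 with 13 at least 2-fold higher. The medians of the TGF-beta, YAP and MHC class I lists changed sign with library size alone, those of the TGF-beta, MHC class I, metal handling, cytokine and skeletal muscle lists (the last with 1 gene left) with the minimum of 10 CPM, and that of the acute phase list without a filter. Leaving out a library would leave a group empty, so no such setting exists. No paired analysis was possible because each group holds 1 library and nothing in the labels ties a PBS to a BuOE sample. The depth limits genes of few counts, and the spread between cultures, which these libraries cannot give, limits all others. BuOE and any other difference between the cultures, such as their cell makeup, cannot be told apart.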

Other observations

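Replication-dependent histone genes, whose mRNAs accumulate in S phase and mostly lack a poly(A) tail, went with the proliferation genes. Of 54 measured genes 51 were below 0 and 42 at least 2-fold lower in the BuOE library, where 4.23% of all genes were (median -1.29), and 39 were so in the irradiated pair, where 5.92% were (median -1.52). Hist1h1b, a linker histone gene, was at 139, 41.8, 109 and 28.2 CPM in the PBS, BuOE, irradiated PBS and irradiated BuOE libraries (-1.73, -1.82 to -1.64). Many histone genes are near-identical, so single values are uncertain. Of the 8 E2F factors, which drive S phase genes, all were below 0 and the repressors E2f7 (-1.85) and E2f8 (-1.84) were at least 2-fold lower. Cytosolic ribosomal protein genes were slightly lower in 71 of 79 cases (median -0.18), with the BuOE library the lowest of the 4 in 68, whereas 77 were higher with BuOE in the irradiated pair (median 0.52).

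Secreted regulators of growth factors also differed. Igfbp5, which binds insulin-like growth factors, was at 639, 2103, 1714 and 810.1 CPM (1.72, 1.70 to 1.74), and Igfbp2 (1.77) and Igfbp3 (1.08) were also at least 2-fold higher, which makes 3 of 6 measured members, with Igfbp6 lower (-0.98). Of 6 measured antagonists of bone morphogenetic proteins 2 were above 0, 1 at least 2-fold higher, Chrd (1.13), and 2 lower by as much. Grem1 was at 217, 51.8, 195 and 75.2 CPM (-2.06, -2.14 to -1.98) and the activin-binding Fst at 248, 89.8, 157 and 79.2 CPM (-1.47, -1.53 to -1.40). Wif1, a secreted Wnt inhibitor, was at 0.238, 8.25, 1.88 and 15.9 CPM (4.77, 4.05 to 6.44), high in both BuOE libraries. Semaphorins, which guide axons and vessels, were at least 2-fold higher in 6 of 19 and lower in 1, Sema3d (-1.52), with Sema4f highest (2.27). Over all genes 8.72% were at least 2-fold higher and 4.23% lower by as much. These groups were chosen after their values were seen.

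Potassium channel genes were at least 2-fold higher in 25 of 52 and lower in 3, where 8.72% and 4.23% of all genes were (median 0.90, irradiated 0.06). Kcna1, a voltage-gated channel gene, was at 2.21 and 24.7 CPM (3.44, 3.11 to 3.87). Genes of cholinergic synapses outside the marker list had the same order: Ache, acetylcholinesterase, was at 0.102, 14.1, 3.34 and 0.782 CPM, and Slc5a7, the choline transporter, at 0.272, 12.9, 2.19 and 0.617 CPM. Hox genes were at least 2-fold higher in 3 of 31 (9.68%) and lower in 2 (6.45%), near the 8.72% and 4.23% of all genes (median 0.25). The light chain gene Igkc was at 9.67 CPM in the PBS and 0.330 CPM in the BuOE library, while none of the 11 lymphocyte markers reached the level rule. Gm43305, a gene model annotated as a processed transcript and outside the naming rule, was at 456, 1564, 418 and 1781 CPM (1.78, 1.75 to 1.81), high in both BuOE libraries.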
